A study of Mus musculus with 48 samples.

Results

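The 10 genes described here, Foxj1, Rfx2, Rfx3, Ccdc153, Dynlrb2, Tmem212, Rsph1, Dnah5, Dnah9 and Hydin, are genes of multiciliated cells, taken by name out of 50763 genes measured in mouse cultures. They were chosen by the measured level of Foxj1, which was well expressed in astrocyte cultures, so the levels in astrocytes against fibroblasts are given as a description and were not tested. The study made 4 mouse lines that carry a BERKY3 biosensor allele, each for another G protein alpha subunit, and sequenced poly-A RNA of 48 libraries in 16 groups of 3. Gas*-BERKY3 cells were primary astrocytes from brain, and Gai*-, Gaq*- and Ga13*-BERKY3 cells were primary lung fibroblasts, all from heterozygous mice. Each line gave 4 groups. Cells received AAV2/1-CMV-Cre, a virus that switches the biosensor on, or AAV2/1-CMV-empty as its control. Each was then left for 90 min in fresh medium with the agonist or without it. The agonist was 1 µM isoproterenol, which activates beta-adrenergic receptors, in astrocytes and 100 µM TRAP-6, a peptide agonist of the thrombin receptor PAR1, in fibroblasts. Astrocytes were seeded at 430000 cells per well and received virus diluted 500-fold, and fibroblasts were seeded at 160000 cells per well and received virus diluted 1000-fold. Cell type, tissue, mouse line, agonist and virus dose therefore changed together between the astrocyte and fibroblast sets and cannot be told apart. The labels number the replicates without saying whether they came from separate mice or cultures, so p-values measure the spread between these samples, which may be technical.

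Ependymal cells line the brain ventricles and carry many motile cilia whose beating moves cerebrospinal fluid. They descend from radial glia, as astrocytes do. Geminin-family coactivators start the multiciliated cell program and switch on Foxj1, a forkhead transcription factor required for motile cilia. RFX transcription factors act beside it by binding a DNA element called the X-box in cilium gene promoters. The motile cilium itself is a ring of microtubule doublets with dynein arms that drive bending, radial spokes that pass signals to the arms, and a central pair of microtubules.

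Depth was alike in both sets of libraries. In units of 1000000 counts, the totals lay between 16.3 and 35.9 (median 20.3) in the 12 astrocyte libraries and between 15.6 and 42.6 (median 19.2) in the 36 fibroblast libraries. Levels are given as counts per 1000000 counts of a library (CPM), with the SD over libraries. The biosensor transcript stood at 19.1 to 27.3 CPM in Cre libraries of the astrocytes and at 74.3 to 136.9 CPM in those of the fibroblasts. It lay between 0 and 1.05 CPM in the empty-virus libraries of all 4 lines. Its level with Cre was thus lower in astrocytes. The labelled cell types matched their defining markers. Gfap, the astrocyte filament protein, averaged 3848 CPM in astrocytes and 0.521 CPM in fibroblasts, and Col1a1, a collagen chain, averaged 883 CPM in astrocytes and 18193 CPM in fibroblasts. All 14 astrocyte markers were higher in every astrocyte library than in any fibroblast library, as were 15.6% of all genes. Among genes that passed a filter on low counts this was 40.4%. The same held for 9 of 11 neural progenitor, 8 of 10 neuron, 6 of 8 oligodendrocyte and 6 of 10 microglia markers. It held for 1 of 6 endothelial and 0 of 10 fibroblast markers. Fibroblast markers still summed to 1711.7 to 2147.2 CPM in astrocyte cultures, against 28423.8 to 49672.6 CPM in fibroblasts. How pure the astrocyte cultures were was not tested.

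Foxj1, whose level chose these genes, was high in astrocytes and near 0 in fibroblasts. In the 12 astrocyte libraries it lay between 299.3 and 353 CPM (median 331.9), and in the 36 fibroblast libraries between 0 and 0.660 CPM. Every astrocyte library was far above every fibroblast library, and the groups did not come near each other. In pooled counts this was 94081 counts in astrocytes against 201 counts in fibroblasts, a ratio of 1308 (95% exact binomial interval 1139 to 1510, counting error only). Its mean in astrocytes was 330.9 ± 17.3 CPM (SD, n = 12). In bulk samples, fewer cells of a type and less RNA per cell cannot be told apart, so these values do not say how many cells held Foxj1 RNA.

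Rfx2 and Rfx3, the X-box binding factors, were present in both cell types. Rfx3 lay between 74.2 and 93.0 CPM in astrocytes and between 3.45 and 9.87 CPM in fibroblasts. Its pooled ratio was 15.2 (14.7 to 15.7). Rfx2 spanned 24.5 to 50.6 CPM in astrocytes and 1.52 to 10.5 CPM in fibroblasts, with a pooled ratio of 6.71 (6.48 to 6.96). For both, the lowest astrocyte library was above the highest fibroblast library.

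Dnah5 and Dnah9 encode heavy chains of the outer dynein arm, the motors of ciliary bending. Dnah5 averaged 56.1 ± 7.30 CPM in astrocytes and 0.0120 CPM in fibroblasts, where 32 of 36 libraries held no count. Dnah9 averaged 76.6 ± 6.93 CPM in astrocytes and 0.115 CPM in fibroblasts, with 15 libraries at 0. Pooled over libraries, Dnah5 gave 15988 counts in astrocytes and 11 in fibroblasts (ratio 4062, interval 2270 to 8140), and Dnah9 gave 21777 in astrocytes and 86 in fibroblasts (ratio 708, interval 573 to 885). Dynlrb2, a roadblock-type dynein light chain, averaged 12.7 ± 1.72 CPM in astrocytes and 0.0254 CPM in fibroblasts, with 24 fibroblast libraries at 0.

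Rsph1, a radial spoke head protein, averaged 32.0 ± 3.15 CPM in astrocytes and 0.644 CPM in fibroblasts. It was the only gene of the 10 besides Rfx2 and Rfx3 with counts in all 36 fibroblast libraries, where it lay between 0.234 and 1.19 CPM. Hydin, a giant protein of the central pair, averaged 10.4 ± 1.04 CPM in astrocytes and 0.0575 CPM in fibroblasts, with 18 libraries at 0. Ccdc153, a coiled-coil protein of the axoneme, averaged 7.80 ± 0.814 CPM in astrocytes. Its fibroblast total was 2 counts, both from the Gai line, and with 0 counts the Gaq and Ga13 lines allow only a bound: astrocytes were at least 653-fold and 824-fold higher (floor of 3 counts over the 12 libraries of a line).

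Tmem212, a membrane protein used as an ependymal cell marker, was measured on few counts. It averaged 0.705 ± 0.296 CPM in astrocytes, between 0.210 and 1.26 CPM, and 0.0456 CPM in fibroblasts, where 22 libraries were at 0. Here the sets overlapped, because 1 Gaq fibroblast library with TRAP-6 and empty virus reached 0.328 CPM on 6 counts. With 193 counts in all astrocyte libraries together, its pooled ratio of 15.9 had a wide interval (11.0 to 23.6). For the other 9 genes every astrocyte library was above every fibroblast library. The same held for 40.4% of the 19316 genes compared, and nothing is read from the count of members, since this contrast chose them.

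**Figure D1:**
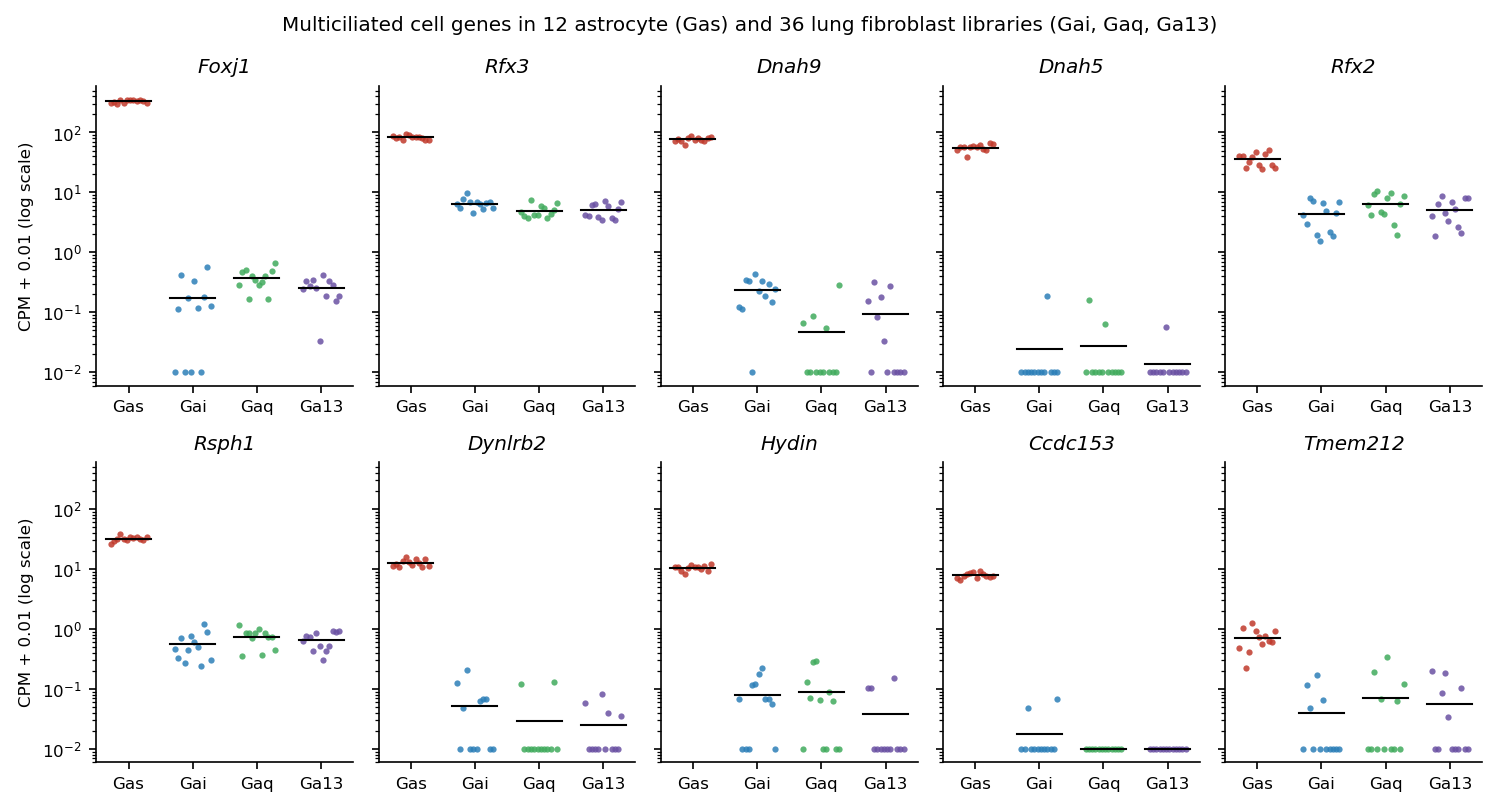
CPM of the 10 genes in each of the 48 libraries, on a log axis after adding 0.01 CPM, with Gas astrocytes left of the Gai, Gaq and Ga13 fibroblasts. Each point is 1 library and each line the mean of 12. The astrocyte points form a tight band above all fibroblast points in every panel except that of Tmem212, and Rfx2, Rfx3 and Rsph1 have no fibroblast point at 0.

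CPM depend on transcript length, so the order of levels among the 10 genes is given per length, as CPM per kilobase of merged exons. On that scale Foxj1 led in astrocytes with 126, followed by Rsph1 with 23.3 and Dynlrb2 with 22.8. Rfx3 (7.50), Rfx2 (4.85), Dnah9 (4.80), Ccdc153 (3.83) and Dnah5 (3.59) lay close together, and Tmem212 (0.984) and Hydin (0.579) were lowest. The dynein heavy chains and Hydin, which have long transcripts, were low on this scale. Several of these counts are uncertain because the genes overlap others in the annotation and the strand setting of the counting is not given in the sources used here. Among such partners, Gm41604 at Rfx2 averaged 3.46 CPM, Gm12296 at Dnah9 averaged 1.41 CPM, and those at Hydin, Rsph1, Rfx3 and Tmem212 averaged at most 0.149 CPM.

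The rest of the motile cilium was present in the astrocyte cultures in the same way. Of 162 genes on 4 lists (dynein arms, radial spokes and central pair, arm assembly factors, and inner tubule or other axonemal proteins), 142 (87.7%) were higher in every astrocyte library than in any fibroblast library, as were 15.6% of all 50763 genes. Genes with few or no counts in both sets lower that last share. Among the 152 list genes that passed a filter on low counts over all 48 libraries, the share was 93.4%. It was 40.4% among the 19316 genes that passed that filter. A gene could pass that filter through its astrocyte counts alone. These shares, here and for the other lists, are therefore a description and not a test. The median level of the 162 genes was 12.4 CPM in astrocytes and 0.209 CPM in fibroblasts, and 145 of them averaged over 1 CPM in astrocytes, against 50 in fibroblasts. Their summed level lay between 2957 and 3240 CPM in astrocytes and between 529 and 595 CPM in fibroblasts. By list, the count was 43 of 45 for spokes and central pair, 59 of 69 for inner tubule and other proteins, 23 of 28 for dynein arms and 17 of 20 for assembly factors. Cfap54, a central pair protein, averaged 83.8 CPM in astrocytes, Rsph4a, another spoke head protein, 45.6 CPM, and Dnah6, an inner arm heavy chain, 41.6 CPM.

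The genes that did not separate the cell types included some that other cell structures use and some that were low in both. Dynlrb1, the sister of Dynlrb2 in cytoplasmic dynein, averaged 125 CPM in astrocytes and 107 CPM in fibroblasts. Dnah8 and Dnah17, heavy chains best known from sperm, averaged 0.689 and 1.47 CPM in astrocytes, against 2.38 and 1.45 CPM in fibroblasts. Sntn, which encodes sentan of the ciliary tip, averaged 0.0162 CPM in astrocytes and had no count in fibroblasts. Of 45 genes for intraflagellar transport and the primary cilium, which most cells carry, 38 (84.4%) were higher in every astrocyte library, against 15.6% of all genes. All 45 passed the filter on low counts over all 48 libraries, where the share was 40.4% of genes.

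Of 20 genes for the start of the multiciliated program and for centriole amplification, 18 were higher in every astrocyte library, against 15.6% of all genes. All 20 passed the filter on low counts over all 48 libraries, where the share was 40.4% of genes. Gmnc, the geminin-family coactivator at the top of the program, averaged 10.8 ± 1.31 CPM in astrocytes and had no count in the 36 fibroblast libraries. Mcidas, which encodes multicilin, averaged 3.85 ± 0.973 CPM in astrocytes and 0.0113 CPM in fibroblasts. Deup1, which builds the deuterosomes on which centrioles multiply, averaged 10.5 ± 0.812 CPM in astrocytes and 0.0147 CPM in fibroblasts, and Myb, a factor of the same program, averaged 10.4 ± 1.10 CPM in astrocytes and 0.0223 CPM in fibroblasts. The exceptions were E2f4, at 32.0 CPM in astrocytes and 47.4 CPM in fibroblasts, and Nfib, whose lowest astrocyte library (284.7 CPM) fell just under its highest fibroblast library (286.6 CPM). Among the other RFX and forkhead genes, Rfx4, known for its role in brain development, averaged 157 ± 71.4 CPM in astrocytes and 0.00576 CPM in fibroblasts.

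**Figure D2:**
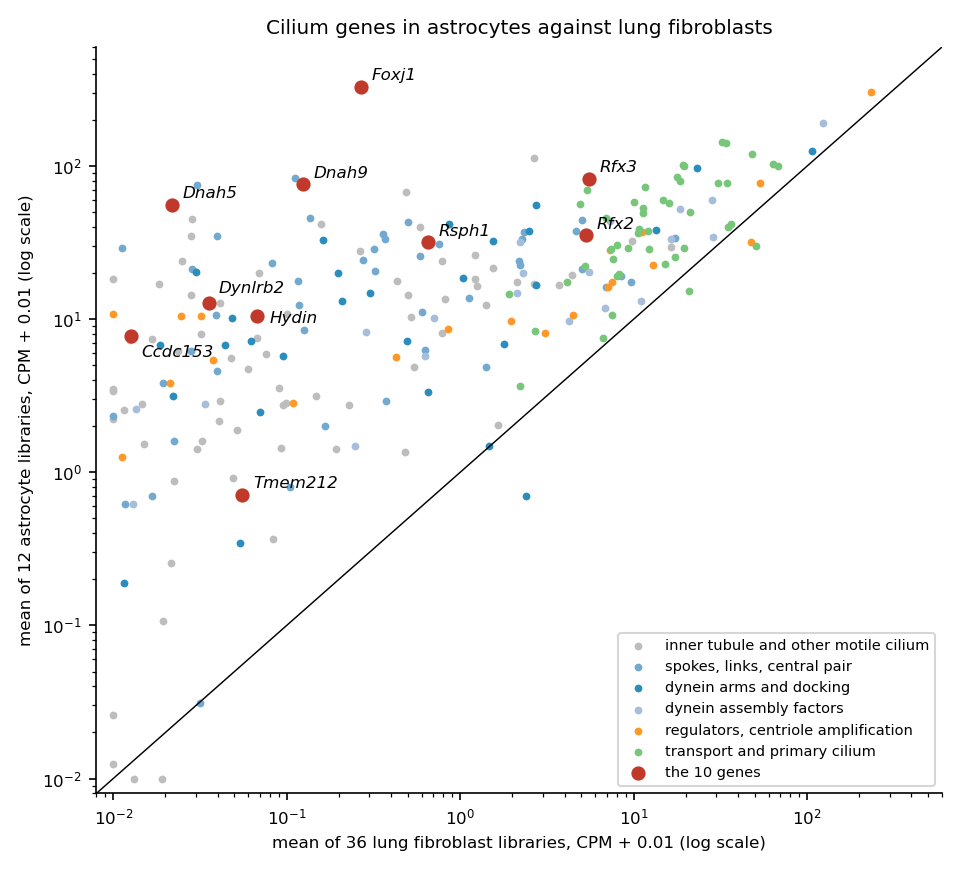
Mean CPM of the motile cilium and regulator genes in the 12 astrocyte libraries against the mean in the 36 fibroblast libraries, both on log axes after adding 0.01 CPM. Each point is 1 gene, the 10 genes are named, and the diagonal marks equal levels. Most points lie far to the astrocyte side of the diagonal.

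Other multiciliated cells were looked for through their own markers. Airway epithelium genes, which would accompany cilium genes in lung, summed to 5.42 to 10.4 CPM in astrocyte cultures and 0.307 to 2.84 CPM in fibroblast cultures. Of its 18 markers only Nkx2-1, a transcription factor also used in the forebrain, reached 1 CPM in astrocytes (6.27 ± 1.32 CPM), while Scgb3a2, Bpifa1, Cyp2f2, Cldn18 and Sftpa1 had no count there. Choroid plexus genes, from the ciliated epithelium that secretes cerebrospinal fluid, summed to 71.9 to 92.6 CPM in astrocyte cultures and 21.5 to 37.4 CPM in fibroblast cultures. Of 15 such markers, 9 were higher in every astrocyte library, against 15.6% of all genes. Among the 12 that passed the filter on low counts over all 48 libraries this was 75%, against 40.4% of genes. Here too a gene could pass through its astrocyte counts alone. Over all 15, 11 averaged 1 CPM or more in astrocytes and 2 did in fibroblasts, with medians of 2.98 and 0.0608 CPM. Ttr, the abundant transthyretin of choroid plexus, averaged 2.44 ± 2.88 CPM in astrocytes, between 0.217 and 9.50 CPM, and Kl, the klotho gene of that epithelium, averaged 0.0372 CPM. Both means were under the astrocyte median of the list, so other genes of the list made up most of its summed level. The part of these cells in the level of the 10 genes was not tested.

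Promoter sequences are shown for the genes in which a binding motif of an RFX or forkhead factor was found, since Rfx2, Rfx3 and Foxj1 are themselves among the 10. They come from RefSeq on GRCm38.p6, which holds a promoter for 8 of the 10 genes. The 250 bases before each start were searched on both strands for the X-box, for its half-site GTTGCC or GGCAAC, and for the forkhead core TGTTTA or TAAACA; an X-box can contain the half-site. The X-box was found in Dynlrb2 and Hydin, ending 39 and 8 bases before the start. It is in capitals in the windows chr8:116504940-116505000 (plus strand) and chr8:110266932-110266976 (plus strand).
Dynlrb2: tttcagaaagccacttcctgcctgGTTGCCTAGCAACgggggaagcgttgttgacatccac
Hydin: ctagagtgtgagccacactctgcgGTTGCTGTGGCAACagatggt
A half-site without an X-box, in capitals below, stood in Ccdc153 at chr9:44240501-44240554 (plus strand) and in Rfx2 itself at chr17:56831095-56831148 (minus strand).
Ccdc153: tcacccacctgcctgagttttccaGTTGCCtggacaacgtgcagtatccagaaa
Rfx2: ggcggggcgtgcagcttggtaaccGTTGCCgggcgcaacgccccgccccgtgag
The forkhead core, in capitals below, stood in Tmem212 at chr3:27896390-27896443 (minus strand) and in Dnah5 at chr15:28203639-28203692 (plus strand).
Tmem212: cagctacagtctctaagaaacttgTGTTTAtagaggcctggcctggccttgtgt
Dnah5: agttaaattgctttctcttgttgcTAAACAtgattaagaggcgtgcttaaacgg
Among all 32851 promoters of the table, 1.29% held the X-box, 10.4% the half-site and 12.0% the forkhead core. Of 144 promoters of genes on the 4 motile cilium lists, 13 held the X-box (9.03%), 45 the half-site (31.2%) and 23 the forkhead core (16.0%). A match describes these letters only and is not evidence of binding.

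After 90 min of isoproterenol, Rfx2 was clearly lower, while Foxj1 and most of the other genes did not pass the test. With isoproterenol, Rfx2 stood at 32.1, 24.5 and 25.6 CPM with Cre virus and at 25.3, 28.2 and 28.5 CPM with empty virus. Without agonist it stood at 40.8, 46.9 and 50.6 CPM with Cre virus and at 40.8, 38.6 and 43.8 CPM with empty virus. All 6 stimulated libraries were below all 6 unstimulated libraries. Averaged over both viruses, Rfx2 fell by 0.62 ± 0.06 on the log2 scale (SE, edgeR quasi-likelihood test, adjusted p = 1.19e-09), to 0.649 of its unstimulated level.

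The only other call among the 10 was a small one for Rsph1. It stood at 38.9, 33.4 and 33.6 CPM with isoproterenol and Cre, at 31.0, 33.5 and 30.1 CPM with isoproterenol and empty virus, at 29.2, 30.9 and 32.1 CPM without agonist and with Cre, and at 25.9, 31.8 and 33.8 CPM without agonist and with empty virus. The stimulated and unstimulated ranges overlapped, and 1 Cre library with isoproterenol was highest. The log2 change was 0.17 ± 0.06 (edgeR adjusted p = 0.0392), and the call was lost without any 1 of 6 libraries (adjusted p up to 0.178). It was also lost with library totals as the only scaling, at 0.12 (adjusted p = 0.173). In all, 2 of the 10 genes were called, while 23.3% of the 18103 genes tested were called. The median log2 change was 0.04 over the 10 genes and -0.00 over all genes.

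Foxj1 averaged 331.6 ± 20.8 CPM with isoproterenol and 330.2 ± 15.0 CPM without agonist (SD, n = 6 each). Its log2 change was 0.06 ± 0.04 (95% interval -0.02 to 0.13, edgeR adjusted p = 0.334). Rfx3 averaged 79.6 CPM with isoproterenol and 85.9 CPM without agonist, a log2 change of -0.06 ± 0.05 (interval -0.15 to 0.03). For Rfx2, which binds the same element, the interval was -0.75 to -0.50, so the intervals of this pair did not meet.

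For Dnah9 the log2 change was 0.02 ± 0.07 (interval -0.12 to 0.17), for Hydin -0.06 ± 0.09 (-0.24 to 0.12), for Ccdc153 0.06 ± 0.10 (-0.14 to 0.26) and for Dynlrb2 0.09 ± 0.10 (-0.10 to 0.27). None of these 4 genes passed the test. Tmem212 had the widest interval, -1.18 to 0.19, on few counts. Dnah5 had a log2 change of 0.15 ± 0.12 (edgeR adjusted p = 0.452), and 1 library decided it. Dnah5 stood at 39.3 CPM in replicate 1 with isoproterenol and Cre and between 50.5 and 66.7 CPM in the other 11 libraries. Without that replicate its log2 change was 0.25 (adjusted p = 0.000143). The same library was also lowest for Dnah9, at 61.0 CPM, and for Hydin, at 8.38 CPM, and was the highest of all for Rsph1.

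**Figure D3:**
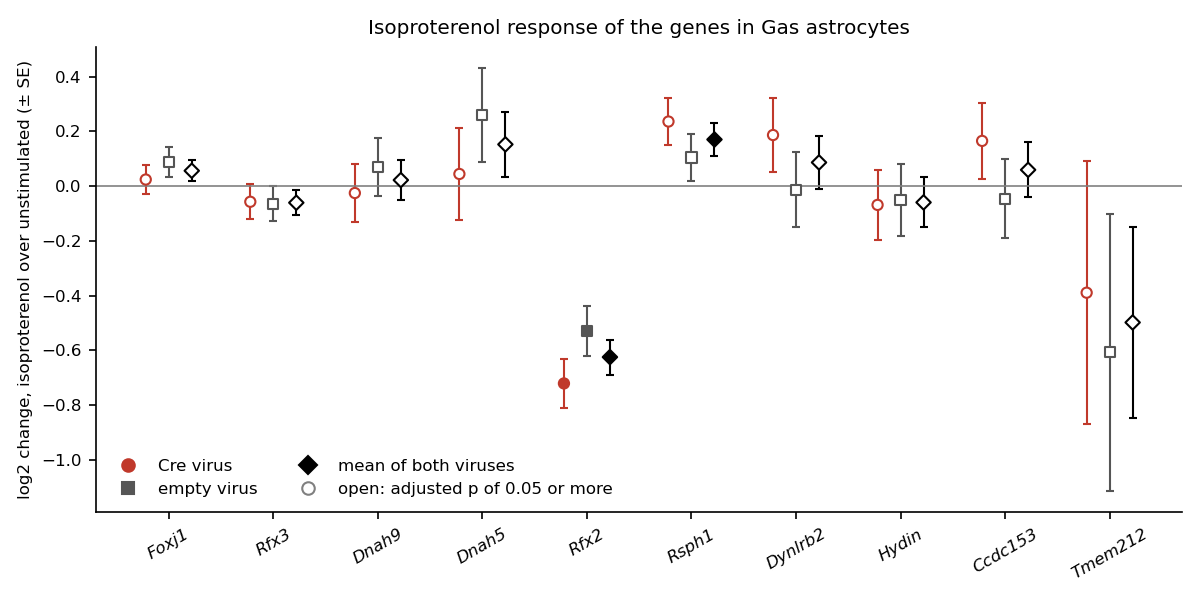
log2 change with isoproterenol for each of the 10 genes in Gas astrocytes, with Cre virus, with empty virus and as the mean of both, with the SE as bars. Filled points had an edgeR adjusted p under 0.05. Rfx2 lies between -0.72 and -0.53 in all 3, Tmem212 lies between -0.61 and -0.39 with the longest bars and is not called, and the other 8 genes lie between -0.07 and 0.26.

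The decrease of Rfx2 was present with each virus. With Cre virus the log2 change was -0.72 ± 0.09 (edgeR adjusted p = 1.24e-07), and Rfx2 was the only 1 of the 10 genes called, where 14.3% of all genes were. With empty virus it was -0.53 ± 0.09 (adjusted p = 4.03e-05), again the only call among the 10 genes, where 14.7% of all genes were called. The test of the difference between the responses gave -0.19 ± 0.13 for Rfx2 (interval -0.44 to 0.06, adjusted p = 1.00). None of the 10 genes was called in that test, and 0 of all 18103 genes were by edgeR and 0 by DESeq2, with 631 at an unadjusted edgeR p under 0.05.

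Cre virus against empty virus, averaged over stimulated and unstimulated astrocytes, moved none of the 10 genes past the threshold. Their log2 changes lay between -0.07 and 0.15, and none had an unadjusted edgeR p under 0.05. Foxj1 in unstimulated astrocytes stood at 322, 349 and 348 CPM with Cre virus and at 316, 315 and 332 CPM with empty virus, ranges that overlap. Over all genes 10 were called (0.0552%), with 1 without agonist (0.00552%) and 3 with isoproterenol (0.0166%).

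Among the 153 genes of the 4 motile cilium lists that passed the filter on low counts, 1 rose and 11 fell with isoproterenol, which is 7.84% called against the 23.3% of all genes, of which 11.7% rose and 11.5% fell. Their median log2 change was -0.03. Cfap74, a central pair protein, rose by 0.35 ± 0.08 to 25.0 ± 2.85 CPM with isoproterenol, against 20.2 ± 2.68 CPM without agonist. Tcte1, a protein of the dynein regulatory complex known from sperm, fell to 1.65 ± 0.437 CPM with isoproterenol, against 3.01 ± 0.591 CPM without agonist (log2 change -0.83 ± 0.19). Ubxn10, which works with intraflagellar transport, had a log2 change of -0.33 ± 0.09. These 3 calls held when any 1 library was left out. Gas8, another dynein regulatory complex subunit, averaged 30.5 ± 2.20 CPM with isoproterenol and 37.1 ± 4.0 CPM without agonist (-0.22 ± 0.06), a call lost without 1 of the 12 libraries. The others that fell were Dnah17 (-0.68 ± 0.23), Dnaaf4 (-0.34 ± 0.12), Odad3 (-0.27 ± 0.09), Dnaaf2 (-0.26 ± 0.09), Rsph3a (-0.25 ± 0.09), Dnaaf10 (-0.23 ± 0.08), Cfap45 (-0.20 ± 0.07) and Drc7 (-0.18 ± 0.06), and each of these 8 lost its call without some single library. With library totals as the only scaling, 1 rose and 22 fell, since that scaling moved the median log2 change of all genes to -0.05. The summed level of the 162 genes overlapped, at 2957 to 3128 CPM with isoproterenol and 3026 to 3240 CPM without agonist.

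Among the regulators, few genes were called. Mcidas averaged 3.06 ± 0.644 CPM with isoproterenol and 4.64 ± 0.401 CPM without agonist (log2 change -0.54 ± 0.15, edgeR adjusted p = 0.00513), with ranges that met only at 4.11 to 4.15 CPM. It was the only 1 of 20 program genes called, against 23.3% of all genes, and the call held without any 1 library. Gmnc, upstream of it, had a log2 change of -0.11 ± 0.09 and was not called. Of 8 other RFX and forkhead genes that passed the filter, 1 rose and 3 fell, where 11.7% of all genes rose and 11.5% fell. Rfx4 rose to 223 ± 26.5 CPM with isoproterenol, against 90.8 ± 8.53 CPM without agonist, with no overlap (log2 change 1.34 ± 0.10, adjusted p = 5.54e-06). Foxk1, a repressor of autophagy genes, fell to 53.7 ± 3.06 CPM with isoproterenol, against 86.3 ± 3.35 CPM without agonist (-0.63 ± 0.05), and Rfx7 and Foxj3 fell by 0.37 ± 0.05 and 0.22 ± 0.05 on the log2 scale. Rfx2 and Rfx4 of the same family therefore moved in opposite directions.

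Of 45 genes for intraflagellar transport and the primary cilium, 1 rose and 5 fell with isoproterenol, which is 13.3% called against 23.3% of all genes. Traf3ip1, an intraflagellar transport subunit, averaged 25.1 ± 1.36 CPM with isoproterenol and 33.0 ± 1.14 CPM without agonist (log2 change -0.35 ± 0.06). Ift81, which carries tubulin, averaged 44.1 ± 2.41 CPM with isoproterenol and 55.2 ± 2.62 CPM without agonist (-0.27 ± 0.05). In both, all stimulated libraries were below all unstimulated libraries. Tulp3, an adaptor for receptors entering the cilium, rose by 0.14 ± 0.04, a call lost with library totals as the only scaling.

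**Figure D4:**
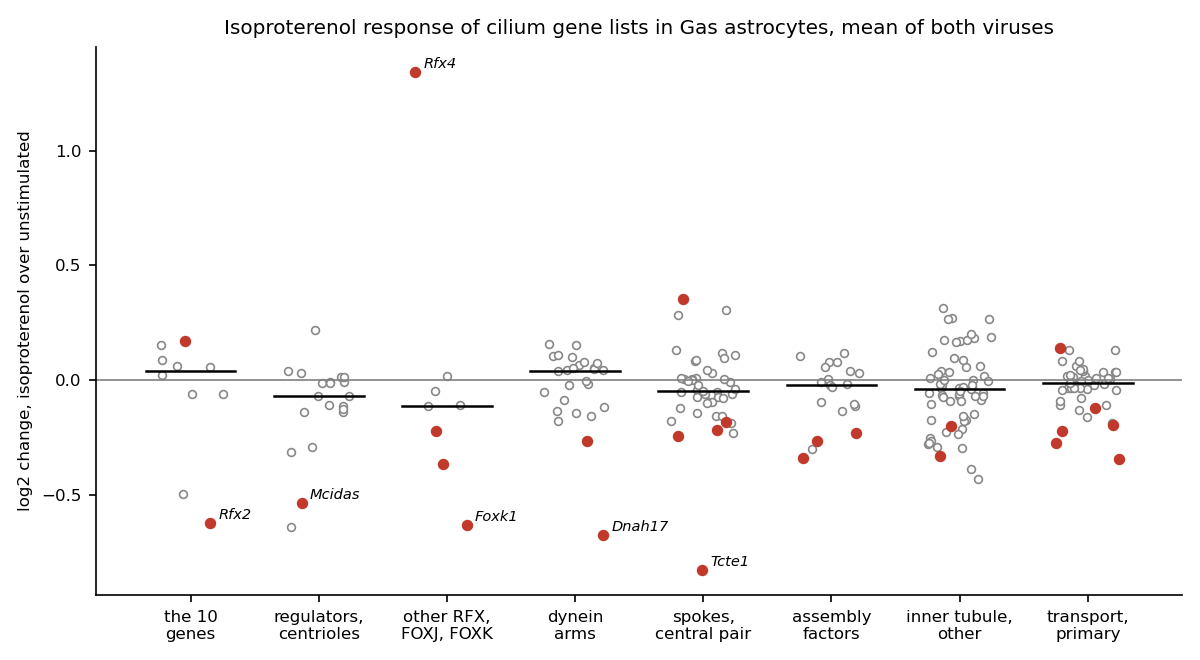
log2 change with isoproterenol (mean of both viruses) for each gene of the cilium and regulator lists that passed the filter on low counts, 1 point per gene. Red points had an edgeR adjusted p under 0.05 and the bar is the list's median. The medians sit near 0, while Rfx4 stands highest and Tcte1, Dnah17, Foxk1, Rfx2 and Mcidas stand lowest of the named genes.

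Across the 12 astrocyte libraries Foxj1 varied little, with a coefficient of variation of 5.23%, against 25.9% for Rfx2 with its isoproterenol response. As a measure of likeness, log2 CPM deviations from the group means were correlated over these 12 libraries with those of 13458 genes at 1 CPM or more. The libraries share their culture, depth and scaling, and the SD of the Foxj1 deviations was only 0.069. The genes most like Foxj1 were Tspyl3 (Pearson r = 0.94), Kcnc1 (0.93), Slc17a5 (0.93), Morn4 (0.93) and Tspan15 (0.92). None of them is on the cilium lists, and 1 of the 5 was also in the first 5 by Spearman's rank correlation. Of the other 9 genes, Rfx2 had r = 0.60, Rsph1 0.46, Ccdc153 0.38 and Dynlrb2 0.36. Rfx3 (0.11), Hydin (0.05), Dnah9 (-0.12) and Dnah5 (-0.23) were near or below 0, and Tmem212 was under the CPM limit. The median r was 0.16 over 145 motile cilium genes and 0.05 over all genes.

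In lung fibroblasts, Rfx2 rose with 90 min of TRAP-6 in all 3 lines, the direction opposite to that of isoproterenol in astrocytes, where another agonist acted on another cell type. Only Rfx2, Rfx3 and Rsph1 passed the filter on low counts there, because the fibroblasts held few or no counts of the others. In Gai fibroblasts Rfx2 stood at 7.05, 4.92 and 6.98 CPM with TRAP-6 and Cre, at 8.03, 6.76 and 4.55 CPM with TRAP-6 and empty virus, at 2.96, 1.52 and 1.88 CPM without agonist and with Cre, and at 4.12, 1.94 and 2.16 CPM without agonist and with empty virus. All 6 stimulated libraries were above all 6 unstimulated libraries. The log2 change was 1.42 ± 0.22 (edgeR adjusted p = 0.00417). Rfx2 was the only 1 of the 3 tested genes called in that line, where 1.12% of all genes were called, or 797 instead of 179 genes when the replicate number was kept as a block.

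The Gaq and Ga13 lines gave similar values for Rfx2. In Gaq fibroblasts it averaged 8.83 ± 1.40 CPM with TRAP-6 and 4.05 ± 1.49 CPM without agonist, a log2 change of 1.17 ± 0.20 (edgeR adjusted p = 0.00254). In Ga13 fibroblasts it averaged 7.23 ± 1.26 CPM with TRAP-6 and 3.09 ± 1.07 CPM without agonist, a log2 change of 1.26 ± 0.16 (adjusted p = 2.3e-06). Neither line had overlapping libraries. In each of these 2 lines Rfx2 and Rfx3 were called, where 5.61% of all genes were called in Gaq and 8.38% in Ga13.

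Rfx3 responded less. In Ga13 fibroblasts it averaged 6.31 ± 0.679 CPM with TRAP-6 and 3.75 ± 0.277 CPM without agonist, with no overlap (log2 change 0.79 ± 0.12, edgeR adjusted p = 7.24e-06). In Gaq fibroblasts it averaged 5.74 ± 1.31 CPM with TRAP-6 and 4.20 ± 0.347 CPM without agonist, with overlap (0.48 ± 0.13, adjusted p = 0.0190). That call was lost without replicate 1 of the unstimulated Cre group or of the TRAP-6 Cre group, replicate 2 of the TRAP-6 empty-virus group, or replicate 3 of the unstimulated empty-virus group (adjusted p between 0.0521 and 0.106). In Gai fibroblasts it averaged 7.21 ± 1.51 CPM with TRAP-6 and 5.82 ± 0.954 CPM without agonist and was not called (0.33 ± 0.14, interval 0.05 to 0.61, adjusted p = 0.453). In 1 fit of all 36 fibroblast libraries, a test chosen after seeing these values, the Rfx3 response in Gai minus that in Ga13 was -0.46 ± 0.18 (edgeR adjusted p = 0.484). Its interval, which is not adjusted for the number of genes, was -0.81 to -0.10. Gai minus Gaq was -0.15 ± 0.18 and Gaq minus Ga13 was -0.30 ± 0.18 for Rfx3. For Rfx2 the differences between lines were 0.25 ± 0.33, 0.17 ± 0.33 and -0.09 ± 0.31 (adjusted p of 0.959 or more). No difference between lines was called for either gene after adjustment over all genes.

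Rsph1 stood at low levels in fibroblasts and did not pass the test. In Ga13 it averaged 0.603 ± 0.264 CPM with TRAP-6 and 0.694 ± 0.173 CPM without agonist (interval of the log2 change -0.80 to 0.54), and the intervals in Gai and Gaq were as wide. Foxj1 was under the filter, with values of 0.407, 0.327 and 0.562 CPM in the Gai group with TRAP-6 and empty virus (29 counts in all) and 0 to 0.171 CPM in the other Gai groups. Of the 4 motile cilium lists, 71 or 72 genes passed the filter in each fibroblast line. Only Cfap69, a protein of the axoneme, was called among them, in Ga13 (5.30 ± 0.724 CPM with TRAP-6, 3.35 ± 0.552 CPM without agonist, log2 change 0.69 ± 0.13). Of all genes tested, TRAP-6 called 1.12% in Gai, 5.61% in Gaq and 8.38% in Ga13. In the same family as Rfx2, Rfx1 was called in Gaq (log2 change 0.41 ± 0.07) and in Ga13 (0.31 ± 0.06). Rfx7 was called in the same lines, with log2 changes of 0.21 ± 0.05 and 0.20 ± 0.04. In each of these lines they were 2 of 7 other RFX and forkhead genes tested, and none of the 7 was called in Gai. Cre virus against empty virus called none of the 3 genes in any fibroblast line, where it called 0.00626% of all genes in Gai, 6.5% in Gaq and 0.0568% in Ga13.

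**Figure D5:**
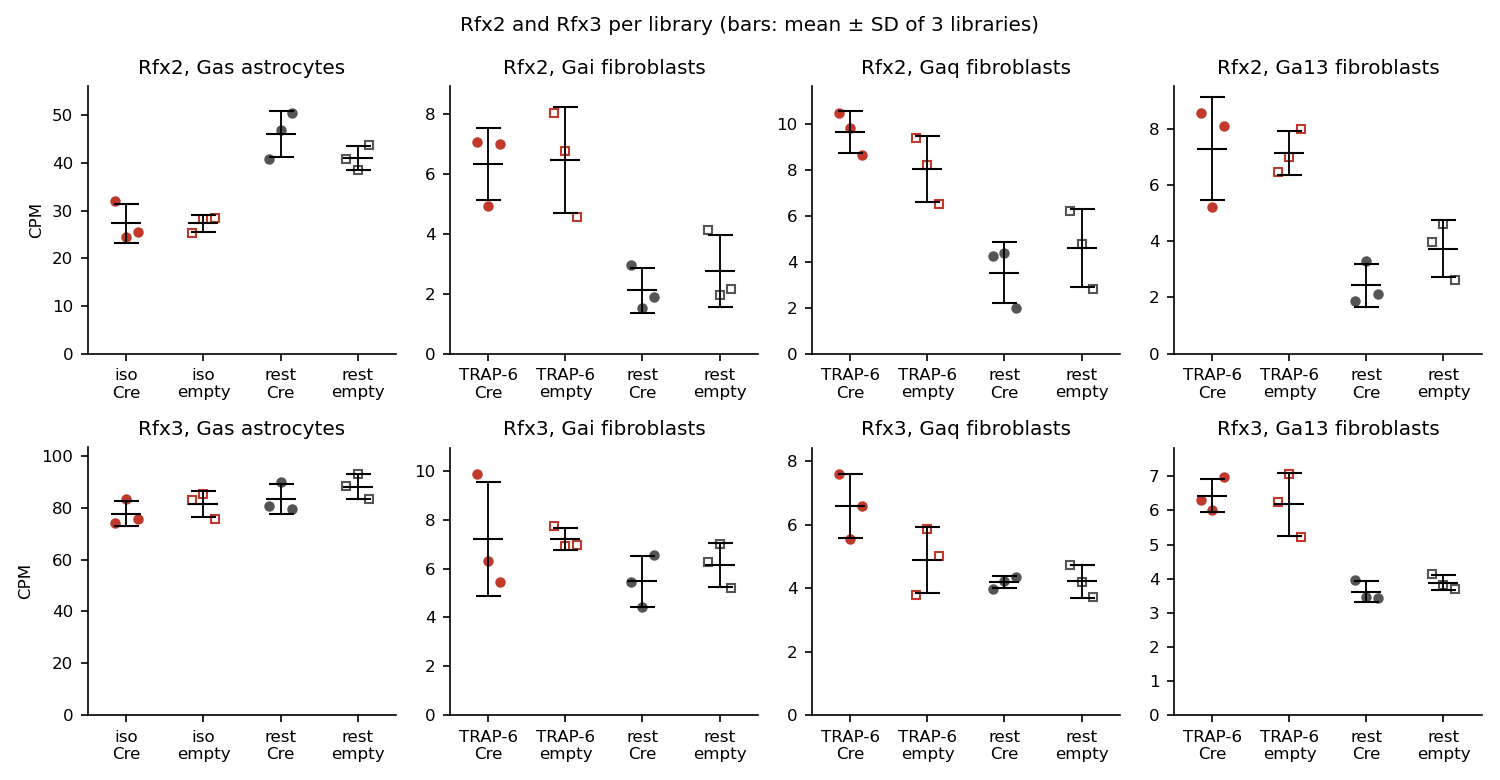
CPM of Rfx2 and Rfx3 in each library of the 16 groups, by mouse line, on linear axes that start at 0, with agonist groups left of the unstimulated groups and Cre left of empty virus in each panel. Points are libraries and bars the mean ± SD of 3. Rfx2 is lower with isoproterenol in astrocytes and higher with TRAP-6 in all 3 fibroblast lines, while Rfx3 is clearly separated only in Ga13.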

How the data were processed

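Poly-A RNA was sequenced from 48 libraries. The authors deposited 4 tables of raw read counts per gene, 1 per mouse line, with 50764 entries including the biosensor. Reads were trimmed with fastp and counted with Subread featureCounts on GRCm39, per the submitters' processing notes, which name these tools without versions or settings; the annotation and strand setting are not given in the sources used here.

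CPM were computed from library totals over the deposited counts. Each line was fitted alone with edgeR 4.0.16 (R 4.3.3; filterByExpr, TMM, robust quasi-likelihood, 1 mean per group, Benjamini-Hochberg adjustment over all genes tested, calls under 0.05). DESeq2 1.42.0, other scalings and filters, a replicate block and leaving out each library were alternatives. The edgeR fits were tested on simulated data with the same spread for every gene in every line and no replicate effect. They recovered 97% to 98% of genes changed by 0.5 on the log2 scale and 100% of those changed by 1. Of the calls, 5.29% to 7.08% were false. Smaller changes, as in many calls given here, were not simulated. Nor were changes in genes of low counts, such as Tmem212 in astrocytes and Rsph1 in fibroblasts. Lengths are merged exons of the GENCODE annotation on GRCm38. Intervals of count ratios and floors of 3 counts cover counting error only. No 2 libraries were identical (chi-square per degree of freedom 2.62 to 19.3 over 48 replicate pairs).

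In Gai, all 18 correlations of same-numbered deviations exceeded 0.1 (0.17 to 0.68). Replicate 1 stood apart there, at 0.57 to 0.68 with its own number and below 0 with other numbers. Replicates 2 and 3 often correlated more with another number. For replicate 2 of the TRAP-6 Cre and TRAP-6 empty-virus groups this was 0.27 against 0.59. The values therefore set replicate 1 apart but did not pair all Gai libraries by number. In Gas, Gaq and Ga13, 5, 10 and 12 of 18 correlations exceeded 0.1, so numbers were not taken to pair those libraries, though some may be linked. The 10 genes, gene lists and tests were chosen with earlier results of these data known. Genes named were the 10, some of the most abundant genes of the lists, and the 5 most like Foxj1. Also named were up to 6 called per list with the smallest p, and all calls where 5 or fewer. Further genes named from the lists were chosen after their values were seen.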

Additional observations from a re-analysis of the deposited data

How the results depend on the processing

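Of 394 single-gene values under alternatives, 364 kept their direction and call, 11 lost a call, 1 gained one and 18 reversed, all reversals in values that were not called. The fall of Rfx2 with isoproterenol was called under 6 of 6 alternatives and without each of the 12 libraries (log2 change -0.68 to -0.58). With library totals as the only scaling, 1 of the 10 genes was called instead of 2, the log2 change of Dnah9 turned to -0.029 and 23 motile cilium genes were called instead of 12; leaving out 1 library gave 1 to 2 and 8 to 11. Leave-one-out log2 changes with isoproterenol were -0.017 to 0.092 for Dnah9 and -0.11 to 0.0080 for Hydin, and for TRAP-6 and Rsph1 were -0.24 to 0.20 in Gai, -0.30 to 0.081 in Gaq and -0.38 to 0.028 in Ga13. With empty virus, 2 instead of 1 of the 10 genes were called when only the compared groups were fitted (1 to 2 on leaving out a library, also with Cre virus, and 1 to 2 in Gaq with TRAP-6). Counts of all genes called moved more. Cre against empty virus in astrocytes called 10 genes, 41 with no filter, 23 with DESeq2, 18 with the replicate block and 5 to 15 on leaving out a library. Without agonist this was 1 gene, 12 with no filter, 2 with DESeq2 and 1 to 4 on leaving out a library; with isoproterenol 3 genes, 0 with a stricter filter, 0 with only the compared groups and 0 to 3 on leaving out a library. TRAP-6 in Gai called 179 genes, 445 with no filter, 293 with DESeq2 and 797 with the replicate block. Cre in Gai called 1 gene, 2 with library totals, 23 with no filter, 0 with a stricter filter, 15 with DESeq2, 29 with the block and 0 to 11 on leaving out a library, and Cre in Ga13 called 9, 28 with no filter, 18 with DESeq2, 41 with the block and 4 to 16. The block changed no call of the 10 genes. The cause of these differences was not tested. TMM scaling over all 48 libraries put the mean of Foxj1 in astrocytes at 258.3 CPM instead of 330.9. At these depths a gene listed at 0 in a fibroblast line is limited only to under 3 counts over its libraries.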

Other observations

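Genes that ependymal cells share with related ventricular and glial cells were also measured in the astrocyte cultures. Vim, an intermediate filament, averaged 5990 ± 267.2 CPM, Nes, a filament of neural stem cells, 1770 ± 210.1 CPM, and Cd24a, a surface protein of ependymal cells and neuroblasts, 224 ± 13.0 CPM. S100b, a calcium-binding protein of ependyma and astrocytes, averaged 11.4 ± 1.37 CPM. The whole list summed to 12846.5 to 14480.3 CPM in astrocytes and 4075 to 6575 CPM in fibroblasts, so its RNA was not confined to astrocytes. Of 18 such genes, 14 were higher in every astrocyte library than in any fibroblast library, against 15.6% of all genes. All 18 passed the filter on low counts over all 48 libraries, where the share was 40.4% of genes. With isoproterenol, 3 of the 18 rose and 3 fell, where 23.3% of all genes were called. Gjb2, a gap junction protein, rose by 2.37 ± 0.16 on the log2 scale (edgeR adjusted p = 2.63e-14), and Nes fell by 0.22 ± 0.05 (adjusted p = 0.00318). Cd24a and Nnat also rose (0.16 ± 0.04 and 0.12 ± 0.04), and Kcnj16 and Numb also fell (-0.21 ± 0.06 and -0.20 ± 0.06).

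Among 13 tanycyte genes, from the non-multiciliated ventricular cells of the hypothalamus, Dio2, which activates thyroid hormone, averaged 153.8 CPM with isoproterenol and 13.2 CPM without agonist (log2 change 3.60 ± 0.23, edgeR adjusted p = 2.82e-06). Rax, a defining tanycyte transcription factor, averaged 0.0561 CPM in astrocyte cultures. Nr2e1 and Lhx2, transcription factors of neural progenitors, rose by 0.55 ± 0.04 and 0.32 ± 0.04. In the choroid plexus list, Otx2, a transcription factor of that epithelium, rose by 1.07 ± 0.09 (adjusted p = 2.58e-12) and Kcnj13, a potassium channel, by 0.70 ± 0.19 (adjusted p = 0.00493), while Enpp2 had a log2 change of 0.02 ± 0.06 and was not called. Of 3 airway epithelium genes that passed the filter in astrocytes, 2 rose, where 11.7% of all genes rose. Nkx2-1 rose by 0.52 ± 0.11 (edgeR adjusted p = 0.000567). Ehf, which averaged under 1 CPM, rose by 1.23 ± 0.43 (adjusted p = 0.0354).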
